A study of Mus musculus with 6 samples.

Results

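The 10 genes described here encode enzymes of glycolysis from glucose phosphorylation to lactate: Hk1, Gpi1, Pfkl, Pfkp, Aldoa, Tpi1, Pgk1, Eno1, Pkm2 and Ldha. They were chosen by name and with earlier results of these data known. Their contrasts with all genes below are therefore descriptions and not independent tests. All 10 were found among the 23284 gene symbols counted, and all passed the filter on low counts with 13039 genes in total. The steps of glyceraldehyde-3-phosphate dehydrogenase and phosphoglycerate mutase have no gene among the 10, and phosphofructokinase has 2. RNA was sequenced from 6 libraries of MIN6 cells, an insulin-secreting line derived from a mouse pancreatic tumour. In 3 libraries the cells had received an antisense oligonucleotide (ASO) against Paupar, a long noncoding RNA transcribed next to Pax6 (Paupar KD), and in the other 3 a control ASO (Control KD). The labels used here give no time, dose or passage. Nor do they tie replicates to separate cultures, so the spread behind each p-value is that between libraries and may be technical only.

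Glycolysis splits a molecule of glucose into pyruvate and yields ATP and NADH; lactate dehydrogenase then turns pyruvate into lactate and restores NAD+. In beta cells the glycolytic flux reports blood glucose to the insulin secretion machinery. Normal beta cells keep Hk1, Ldha and the monocarboxylate transporter Slc16a1 low, so that pyruvate is passed to the mitochondria. In many mammalian cell types, genes of most glycolytic steps are also induced by the hypoxia-inducible factor HIF-1.

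Library totals were 16973622, 20302121 and 23434166 counts in Paupar KD replicates 1, 2 and 3, against 22463557, 23624880 and 28693863 in Control KD. Ins2, an insulin gene, stood at 18601 to 28450 CPM (counts scaled to library size) in Paupar KD and 14430.1 to 17207 CPM in Control KD, and Pdx1, a beta cell transcription factor, at 360.3 to 408 CPM in Paupar KD and 334 to 389 CPM in Control KD. Of 18 mesenchymal, endothelial and immune markers, 6 had no count in any library, and the summed level of the list was 2.54 to 3.39 CPM in Paupar KD and 4.0 to 4.36 CPM in Control KD. Of 16 exocrine and duct markers, 7 had no count, including the acinar genes Prss2 and Cpa1; their sum was 269.6 to 421 CPM in Paupar KD and 296 to 299.8 CPM in Control KD. The 9 alpha cell markers summed to 1086 to 1303 CPM in Paupar KD and 1013 to 1063 CPM in Control KD, with 3 of them at 0 in every library. The 5 delta and PP cell markers summed to at most 2.83 CPM in Paupar KD and 1.02 CPM in Control KD. The 20 beta cell markers summed to 73322, 51278 and 50933 CPM in Paupar KD replicates 1 to 3, against 46313 to 50336 CPM in Control KD. The part of the high beta cell sum of replicate 1 in the results below was not tested. Paupar has no row that could be matched here, so the knockdown itself was not checked.

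The Paupar KD libraries were unequal for these enzymes, while the controls were alike. The 10 genes together took 0.383%, 0.567% and 0.783% of all counts in Paupar KD replicates 1, 2 and 3, against 0.814%, 0.816% and 0.748% in Control KD. Replicates 1 and 2 lay below all controls, and replicate 3 lay among them. The median coefficient of variation of the 10 genes was 45.7% in Paupar KD and 6.0% in Control KD; over all genes tested it was 14.2% in Paupar KD and 5.31% in Control KD. Among the Paupar KD libraries, replicate 1 had the lowest and replicate 3 the highest level of all 10 genes, an order found in 25.5% of all genes tested.

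With the 3 libraries of each group compared as replicates, none of the 10 genes passed. The log2 fold change was negative for all 10, their median being -0.48 against 0.01 over all genes tested, and 0 were called at an adjusted p under 0.05 (edgeR quasi-likelihood test, Benjamini-Hochberg adjustment over all genes; adjusted p = 0.233 to 0.691). At an unadjusted p under 0.05 there were 2 of the 10, Gpi1 and Pkm2, which is near the 17.7% of all genes tested. Of all genes tested, edgeR called 0.00767% lower and 0.0383% higher in this comparison. DESeq2 and limma-voom also called 0 of the 10; over all genes limma-voom called 1 lower and 5 higher, and DESeq2 233 lower and 275 higher. For 2 of the 10 genes, Gpi1 and Pkm2, every Paupar KD value lay below every control, against 13.3% of all genes tested. Without Paupar KD replicate 3, 7 of the 10 were called lower, with a median log2 fold change of -0.87, and of all 13148 genes tested in that fit 745 were lower and 611 higher. Without replicate 1, 0 of the 10 were called, with a median of -0.19, and of 13171 genes 128 were lower and 123 higher. In bulk RNA, fewer cells that express a gene and less of its RNA per cell cannot be told apart.

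**Figure D1:**
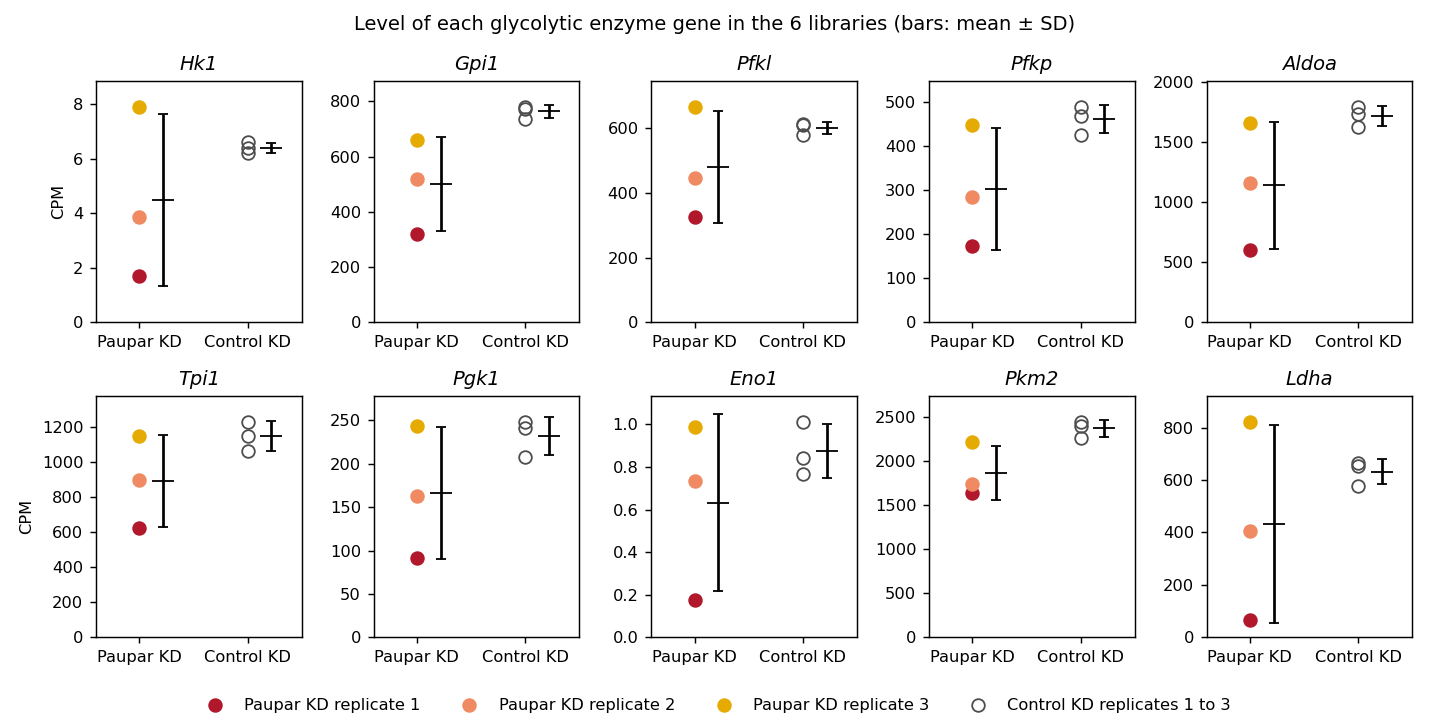
Level in CPM (linear axes from 0) of each of the 10 enzyme genes in the 3 Paupar KD libraries (filled, coloured by replicate) and the 3 Control KD libraries (open), with the mean ± SD of each group beside the points. In every panel Paupar KD replicate 1 is the lowest library and replicate 3 the highest of the Paupar KD libraries; Ldha stands at 66.3, 407 and 823 CPM in replicates 1 to 3.

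Each Paupar KD library was therefore set by itself against the 3 controls, in a fit in which the spread comes from the controls alone. Such a test compares a library with the controls, not the conditions, and assumes that the library varies as the controls do. In Paupar KD replicate 1, 10 of the 10 genes were lower, where 25.2% of all genes tested were called lower and 24.2% higher. In replicate 2, 9 of the 10 were lower, against 11.3% of all genes lower and 8.92% higher; Eno1 was not called. In replicate 3, Gpi1 was lower and Ldha higher, 1 of 10 in each direction, against 9.13% lower and 7.65% higher of all genes, which is near the background. Without Control KD replicate 1 or 2, or with DESeq2, 1 of the 10 was called there, higher. Over all genes, 1060 of 13166 were higher and 1173 lower there without Control KD replicate 1. Without Control KD replicate 2 it was 514 and 800 of 13141, and with DESeq2 359 and 581 of 13039. The median log2 fold changes of the 10 genes were -1.38, -0.54 and 0.03 in replicates 1, 2 and 3, while the medians over all genes were within 0.01 of 0.

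**Figure D2:**
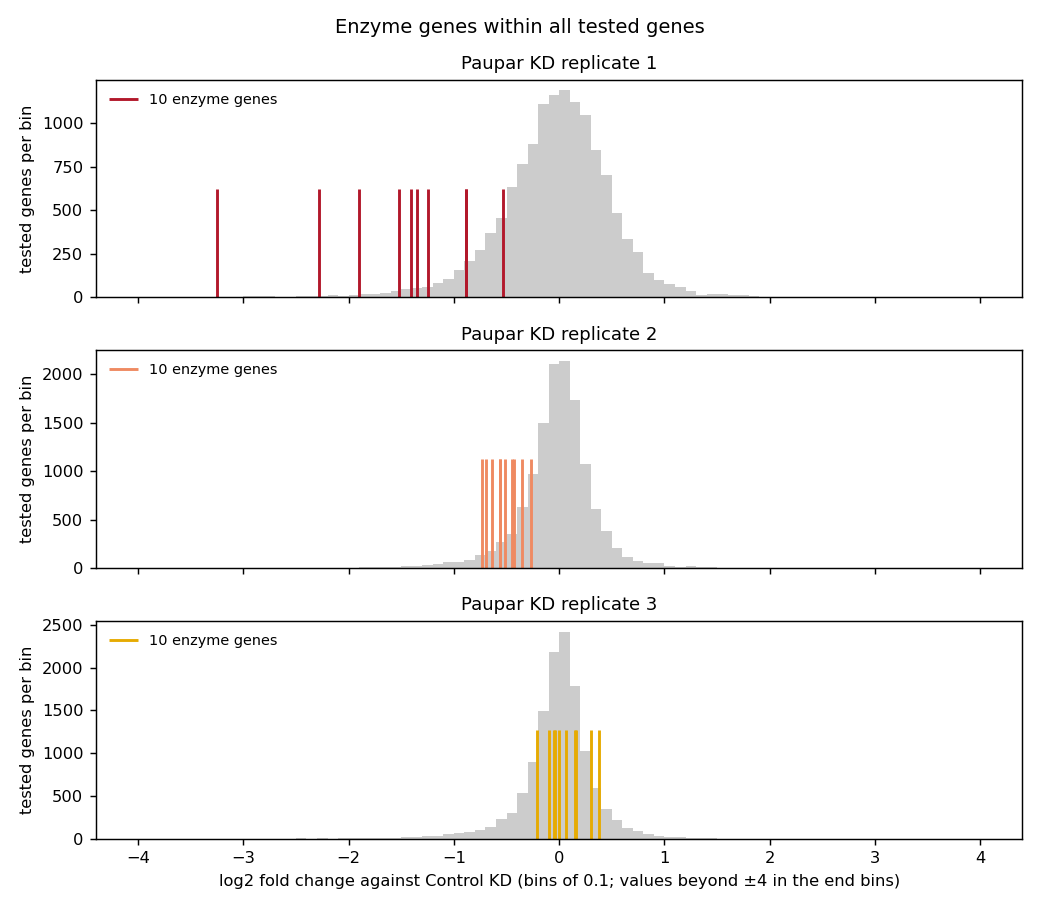
Histograms of the log2 fold change of all 13039 genes tested, for each Paupar KD library against the 3 controls (x axis: log2 fold change; y axis: genes per bin), with the 10 enzyme genes as coloured lines. The lines lie in the left tail in replicate 1 (-3.25 to -0.53), on the left flank in replicate 2 (-0.73 to -0.26) and around 0 in replicate 3 (-0.21 to 0.38).

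Stretches upstream of 3 of these genes are shown as examples of the word ACGTG, the core of the HIF response element in mammals, before a start. They were picked among the genes that carry the word and were low in the same libraries. Gpi1, Pfkl, Pfkp, Tpi1 and Eno1 were also below all controls in replicate 1, without the word in any window. A part of HIF in these levels was not tested. Sequences are from RefSeq in the build GRCm38.p6, from 5′ to 3′ along the gene's strand; all 10 genes matched, with 17 start windows from 250 bases before to 50 bases after an annotated start. Capitals mark ACGTG, its reverse complement CACGT, or CACGTG, in which both overlap and which is also the E-box word.
Ldha, chr7:46845644-46845783, plus strand: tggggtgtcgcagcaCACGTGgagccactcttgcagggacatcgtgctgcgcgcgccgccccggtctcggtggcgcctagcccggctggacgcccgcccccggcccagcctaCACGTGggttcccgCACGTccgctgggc
Pgk1, chrX:106186930-106186999, plus strand: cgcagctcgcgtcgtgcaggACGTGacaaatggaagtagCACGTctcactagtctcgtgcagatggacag
Aldoa, chr7:126799345-126799414, minus strand: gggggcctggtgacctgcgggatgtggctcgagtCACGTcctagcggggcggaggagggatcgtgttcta
The Ldha window holds CACGTG at -145 and -48 and CACGT at -34 from the start. The Pgk1 window holds ACGTG at -150 and CACGT at -131, and the second Aldoa window CACGT at -126. Pkm2 was also low in replicates 1 and 2 and holds CACGT before a start, at -75, but is not shown. Its log2 fold change in replicate 1 was the smallest in size of the 10 (-0.53). Of the 10 genes, 5 (Ldha, Pgk1, Aldoa, Hk1 and Pkm2) had the word in at least 1 window, as did 21.8% of all 27025 genes in the table. These gene shares are not alike, as a gene with more windows has more chances of a match. The 10 genes had 17 windows, and all 27025 genes had 32851. The word was in 6 of the 17 windows, against 19.6% of all windows. Enrichment was not tested. Windows 2 and 3 of Aldoa are both among the 6, and they overlap and share 1 CACGT, at -126 and -202. A match is a description of the letters, and which start is used in MIN6 cells was not measured.

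The first steps are those of hexokinase and glucose-6-phosphate isomerase. Hk1, hexokinase 1, which phosphorylates glucose (chromosome 10, 61731603 to 61842656 of the mm9 assembly, minus strand), was at 1.71, 3.86 and 7.90 CPM in Paupar KD replicates 1 to 3 and at 6.38, 6.22 and 6.60 CPM in Control KD. Replicates 1 and 2 lay below the controls and replicate 3 above them. The log2 fold change was -1.90 ± 0.23 (SE) in replicate 1 (edgeR adjusted p = 9.24e-06) and -0.73 ± 0.18 in replicate 2 (0.0105), and it was not called in replicate 3 (0.30 ± 0.15, 0.188). With 29 to 189 counts a library, Hk1 was not abundant: per kilobase of annotated exon it reached 0.750 ± 0.02 RPKM (CPM divided by the exon length in kilobases; SD, n = 3) in Control KD, against 49.1 ± 3.47 RPKM or more for the other genes among the 10 except Eno1.

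Gpi1, glucose-6-phosphate isomerase (chromosome 7, 34987141 to 35015308, minus strand), was at 321, 517 and 659.8 CPM in Paupar KD replicates 1 to 3 and at 779.7, 773 and 738 CPM in Control KD. All Paupar KD libraries lay below all controls. Its log2 fold changes were -1.25 ± 0.07, -0.56 ± 0.07 and -0.21 ± 0.07 (SE) in replicates 1 to 3, all called lower (edgeR adjusted p = 6.29e-09, 4.41e-05 and 0.0424).

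Phosphofructokinase, the main regulated step of the pathway, is encoded by 3 genes whose products form mixed tetramers. Pfkl, the liver type (chromosome 10, 77449692 to 77472828, minus strand), was at 325, 446 and 666 CPM in Paupar KD replicates 1 to 3 and at 609.6, 614 and 578 CPM in Control KD. Pfkp, the platelet type (chromosome 13, 6579014 to 6648023, minus strand), was at 173, 285 and 447 CPM in Paupar KD and at 469, 489 and 425 CPM in Control KD. Both were lower in replicates 1 and 2, with log2 fold changes of -0.89 ± 0.07 and -0.43 ± 0.07 for Pfkl and of -1.41 ± 0.09 and -0.69 ± 0.08 (SE) for Pfkp; in replicate 3 Pfkl lay above all controls and Pfkp among them, and neither was called. Pfkm, the muscle type and not among the 10, was at 86.9, 79.2 and 83.8 CPM in Paupar KD and at 79.3 ± 3.55 CPM in Control KD (SD, n = 3), with no call in any library (edgeR adjusted p = 0.167 to 0.988). Of the RPKM summed over the 3 genes, Pfkm made up 23.6%, 16.4% and 12.1% in Paupar KD replicates 1 to 3, against 11.6% to 12.8% in Control KD. The sum itself was 121, 158 and 227 RPKM in Paupar KD, against 212 ± 8.27 RPKM in Control KD (SD, n = 3).

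Aldoa and Tpi1 make and interconvert the triose phosphates. Aldoa, aldolase A (chromosome 7, 133938748 to 133944265, minus strand), was at 599.6, 1162 and 1659 CPM in Paupar KD replicates 1 to 3 and at 1794, 1737 and 1627 CPM in Control KD. Replicates 1 and 2 lay below the controls (log2 fold change -1.52 ± 0.08 and -0.56 ± 0.07, SE; edgeR adjusted p = 2.05e-09 and 8.02e-05) and replicate 3 lay within their range. Tpi1, triose phosphate isomerase (chromosome 6, 124760604 to 124764314, minus strand), was at 623, 901 and 1149 CPM in Paupar KD and at 1153, 1231 and 1064 CPM in Control KD. Its log2 fold changes were -0.88 ± 0.08 and -0.35 ± 0.08 (SE) in replicates 1 and 2, both called lower (edgeR adjusted p = 7.53e-07 and 0.00637), and it stood within the control range in replicate 3. Aldoc, the brain type, was lower in replicates 1 and 2 (log2 fold change -0.65 and -0.66; edgeR adjusted p = 2.61e-04 and 8.11e-04).

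Pgk1, phosphoglycerate kinase 1, makes the first ATP of the pathway (chromosome X, 103382439 to 103399038, plus strand). It was at 91.2, 163 and 243 CPM in Paupar KD replicates 1 to 3 and at 241, 248 and 208 CPM in Control KD, so that replicates 1 and 2 lay below the controls (log2 fold change -1.35 ± 0.10 and -0.51 ± 0.09, SE; edgeR adjusted p = 3e-07 and 0.00194) and replicate 3 lay among them. Processed copies of glycolytic genes are spread over the mouse genome, and reads that match more than 1 place may have been lost or divided; how they were treated is not given in the sources used here. In the mm9 assembly 92.9% of the 50-base words of the longest Pgk1 transcript also occur outside the gene, letter for letter. For the other genes among the 10 the share was 72.2% for Eno1, 41.4% for Pkm2, 31.4% for Gpi1, 29.1% for Ldha, 23.6% for Tpi1, 14.8% for Aldoa and under 1% for Hk1, Pfkl and Pfkp. With 100-base words it was 89.8% for Pgk1, 59.0% for Eno1, 10.8% for Pkm2, 9.39% for Gpi1, 7.69% for Tpi1, 1.32% for Ldha and 0 for the other 4. The read length is not given in the sources used here. Levels per gene, and Pgk1 and Eno1 above all, are therefore uncertain.

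Eno1, enolase 1 (chromosome 4, 149610830 to 149622988, plus strand), held only 3, 15 and 23 counts in Paupar KD replicates 1 to 3 and 19, 18 and 29 in Control KD. That is 0.177, 0.734 and 0.987 CPM in Paupar KD, against 0.842, 0.767 and 1.01 CPM in Control KD, so the gene cannot be called abundant in these files. In replicate 1 its ratio to the controls was 0.200, with an exact 95% interval of 0.0403 to 0.611 that covers counting error only (log2 fold change -2.28 ± 0.66, SE; edgeR adjusted p = 0.00926). Gm5506, now named Eno1b in RefSeq, is a gene with a transcript that holds 66.1% of the 50-base words and 54.0% of the 100-base words of Eno1, and it carried far more reads: 55.1, 74.6 and 131 CPM in Paupar KD replicates 1 to 3, against 146, 149 and 129.6 CPM in Control KD. How reads that match both genes were assigned was not tested. Gm5506 was lower in replicates 1 and 2 (log2 fold change -1.36 ± 0.09 and -0.92 ± 0.09, SE; edgeR adjusted p = 3.46e-08 and 4.48e-06) and not called in replicate 3. The counts of both genes were also summed, a choice made after the data were seen. In replicate 2 that sum held 15 counts of Eno1 and 1526 of Gm5506. It therefore follows Gm5506 and says nothing about Eno1, whose own log2 fold change there was -0.26. With the sum in place of Eno1, the median of the 10 in replicate 2 was -0.56. Eno2, the neuronal enolase, was at 48.7, 48.4 and 46.3 CPM in Paupar KD and at 50.9 ± 2.43 CPM in Control KD (SD, n = 3), with no call in any library. Eno3, the muscle type, had no call either (10.1 to 13.2 CPM in Paupar KD and 10.7 ± 0.72 CPM in Control KD).

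The last steps make pyruvate and lactate. Pkm2 is the older symbol of Pkm, the pyruvate kinase gene from which the M1 and M2 isoforms are spliced; the counts do not separate them (chromosome 9, 59504383 to 59527182, plus strand). It had the highest level of the 10, at 1635, 1741 and 2213 CPM in Paupar KD replicates 1 to 3 and at 2396, 2446 and 2266 CPM in Control KD, and all Paupar KD libraries lay below all controls. It also differed least between the Paupar KD libraries, with log2 fold changes of -0.53 ± 0.07, -0.44 ± 0.07 and -0.10 ± 0.07 (SE) in replicates 1 to 3 (edgeR adjusted p = 1.93e-05, 4.52e-04 and 0.357). Pklr, the other pyruvate kinase gene, is expressed in liver and, beside Pkm, in beta cells. It was at 47.4, 21.6 and 28.7 CPM in Paupar KD and at 28.9 ± 1.5 CPM in Control KD (SD, n = 3). Pklr was higher in replicate 1 and lower in replicate 2 (edgeR adjusted p = 1.93e-05 and 0.00984). Pkm2 still made up 97.9% to 99.1% of the RPKM of both genes in Paupar KD and 99.0% to 99.2% in Control KD.

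Ldha, lactate dehydrogenase A (chromosome 7, 54096845 to 54110997, plus strand), had the widest range of the 10. It was at 66.3, 407 and 823 CPM in Paupar KD replicates 1 to 3 and at 652, 666 and 578 CPM in Control KD. Replicates 1 and 2 lay below all controls, at 0.105 and 0.644 of their mean, and replicate 3 lay above all of them, at 1.30. The log2 fold changes were -3.25 ± 0.10, -0.63 ± 0.08 and 0.38 ± 0.08 (SE), each called (edgeR adjusted p = 1.44e-11, 8.07e-05 and 0.00338). Replicate 3 held 12.4 times the Ldha level of replicate 1, against 1.35 times for Pkm2 and 1.84 to 5.58 times for the other 8 genes. In replicate 1, 0.0997% of all genes tested had a log2 fold change as low as that of Ldha or lower. Ldhb, the other main lactate dehydrogenase gene, held 17 to 39 counts a library and was not called in any (0.831 to 1.71 CPM in Paupar KD, 1.03 ± 0.17 CPM in Control KD).

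**Figure D3:**
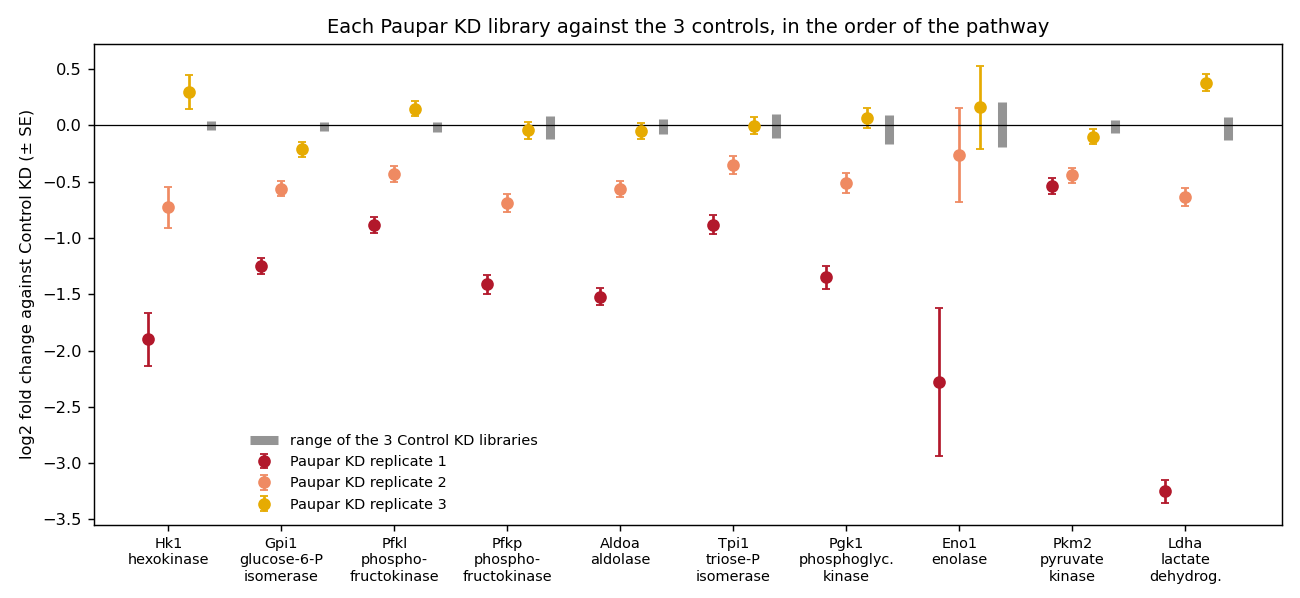
Log2 fold change (y axis, ± SE) of each enzyme gene in each Paupar KD library against the 3 controls, in the order of the pathway (x axis); grey bars give the range of the control libraries around their mean. Replicate 1 runs from -0.53 for Pkm2 to -3.25 for Ldha, replicate 2 from -0.26 to -0.73, and replicate 3 from -0.21 to 0.38.

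The sizes differed between steps in replicate 1 more than in replicate 2. In replicate 1 the log2 fold changes of Pfkl, Tpi1 and Pkm2 were -0.53 to -0.89, those of Gpi1, Pfkp, Aldoa and Pgk1 -1.25 to -1.52, and those of Hk1, Eno1 and Ldha -1.90 to -3.25. Of these, Hk1 and Eno1 rest on few counts. In replicate 2 the same 10 genes lay between -0.73 and -0.26. As the 3 tests share their controls, the values are given side by side and no likeness between the libraries is drawn from them. Per kilobase, Ldha in Paupar KD replicate 1 stood at 22.2 RPKM, below Pfkl (73.9), Gpi1 (71.4) and Pgk1 (40.6) and above Pfkp (18.4), while in each control it stood above all 4. The order of mean levels in Control KD was Pkm2 (991 ± 38.9 RPKM), Aldoa (624 ± 30.9), Tpi1 (520.2 ± 38), Ldha (212 ± 15.8), Gpi1 (169.7 ± 5.02), Pfkl (137 ± 4.45), Pgk1 (104 ± 9.72), Pfkp (49.1 ± 3.47), Hk1 (0.750 ± 0.02) and Eno1 (0.162 ± 0.02) (SD, n = 3). By this length, the ranges of neighbours in this order did not overlap among the control libraries. All annotated exons together exceed the longest protein-coding transcript by unlike shares, with 2754 against 1549 bases for Aldoa and 2391 against 2221 for Pkm2. The lengths were 4497 against 2037 for Gpi1, 2982 against 1766 for Ldha and 9395 against 4145 for Pfkp. With CPM divided by the transcript length, Aldoa stood above Pkm2 and Gpi1 above Ldha in mean Control KD level. In Paupar KD replicate 1 Ldha then stood below Pfkp. The order above and the place of Ldha in replicate 1 therefore hold only for the length of all annotated exons.

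The main genes of the 2 steps with no gene among the 10 were Gapdh and Pgam1. Gapdh, glyceraldehyde-3-phosphate dehydrogenase, was at 6.61, 4.70 and 4.08 CPM in Paupar KD replicates 1 to 3 and at 9.97, 8.86 and 10.5 CPM in Control KD. It was lower in each library (log2 fold change -0.57, -1.06 and -1.26; edgeR adjusted p = 0.011, 5.51e-04 and 1.52e-04), with the lowest value in replicate 3, unlike the 10. Pgam1, phosphoglycerate mutase 1, was at 51.0, 95.8 and 126.6 CPM in Paupar KD and at 113, 106 and 84.8 CPM in Control KD, and was lower in replicate 1 alone (log2 fold change -0.99; edgeR adjusted p = 0.00508). Of their 50-base words 85.6% (Gapdh) and 91.9% (Pgam1) occur elsewhere in the genome, so that both levels are uncertain. Among the 14 tested isoenzymes and neighbouring enzymes of the same steps, 3 were lower and 4 higher in replicate 1 (median log2 fold change 0.07), near the 25.2% lower and 24.2% higher of all genes. In replicate 2, 3 were lower and 1 higher (-0.15), against 11.3% and 8.92% of all genes, and in replicate 3, 2 were lower and 0 higher (0.03), against 9.13% and 7.65%. Among those higher in replicate 1 were Pklr and Bpgm, the enzyme that makes 2,3-bisphosphoglycerate (log2 fold change 0.71 and 0.77; edgeR adjusted p = 1.93e-05 and 5.16e-05). None of the 14 was called between the groups, where 2 had an unadjusted p under 0.05 by edgeR, against 17.7% of all genes.

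**Figure D4:**
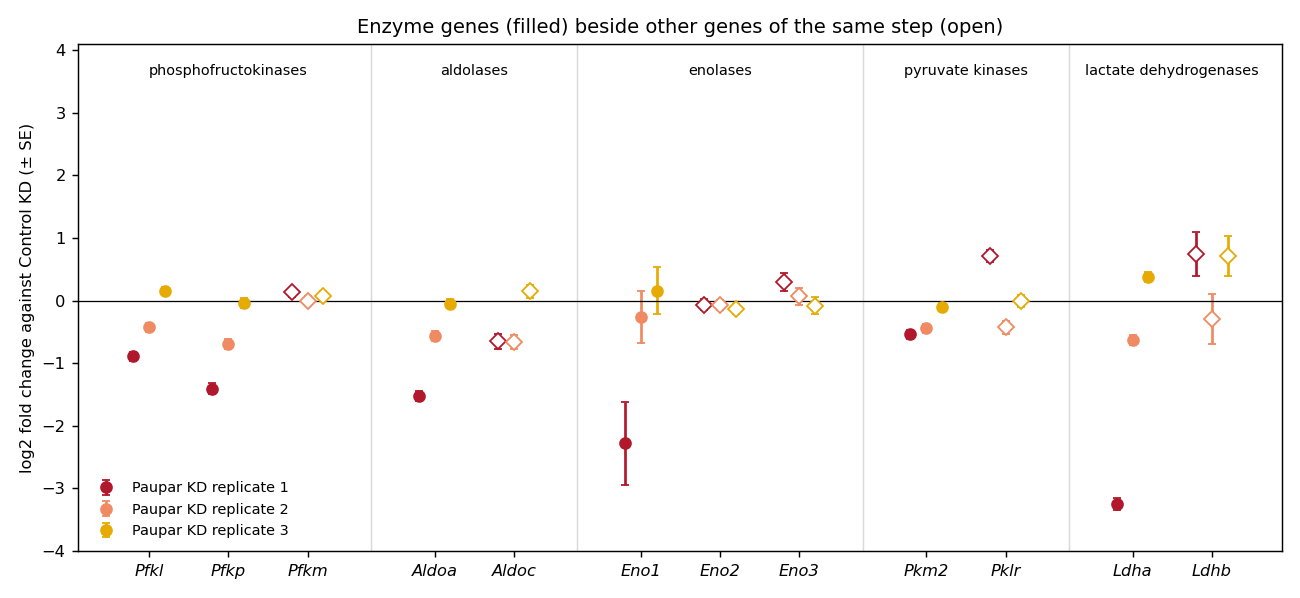
Log2 fold change (y axis, ± SE) in each Paupar KD library against the 3 controls for enzyme genes among the 10 (filled circles) and other genes of the same step (open diamonds), grouped by step along the x axis. In replicate 1 Pfkm and Pklr lie above 0 (0.13, not called, and 0.71), where Pfkl, Pfkp and Pkm2 lie below it (-0.89, -1.41 and -0.53).

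Of 7 genes that control fructose bisphosphate, 2 were lower and 3 higher in replicate 1, where 25.2% of all genes were lower and 24.2% higher. In replicate 2, 2 were lower and 1 higher, and in replicate 3, 2 were lower and 0 higher. Pfkfb3, which makes the phosphofructokinase activator fructose 2,6-bisphosphate, was at 106, 143 and 257 CPM in Paupar KD replicates 1 to 3 and at 300.3, 313 and 279.7 CPM in Control KD; it was lower in replicates 1 and 2 (edgeR adjusted p = 4.08e-09 and 4.51e-07). Fbp1 and Fbp2, which reverse the phosphofructokinase step, were higher in replicate 1 (log2 fold change 0.96 and 0.85; edgeR adjusted p = 9.51e-06 and 2e-07). Fbp1 was also higher in replicate 2 (0.55; edgeR adjusted p = 0.00476) and lower in replicate 3 (-0.47; 0.0257). Pfkfb2, a relative of Pfkfb3, was lower in each library (-0.41, -0.24 and -0.52; edgeR adjusted p = 2.4e-04, 0.0237 and 1.52e-04). Of 9 tested transporter genes, 4 were lower and 3 higher in replicate 1, 4 lower and 0 higher in replicate 2, and 1 in each direction in replicate 3. Of all genes 25.2% were lower and 24.2% higher in replicate 1, 11.3% and 8.92% in replicate 2, and 9.13% and 7.65% in replicate 3, so that the counts of replicate 3 are near the background. Slc16a3, a lactate exporter, was at 88.6, 266 and 512.6 CPM in Paupar KD and at 479, 465 and 431 CPM in Control KD (log2 fold change -2.37, -0.78 and 0.16; edgeR adjusted p = 8.76e-11, 5.63e-06 and 0.138). Slc16a1, which also carries lactate and pyruvate, and the glucose transporter Slc2a1 were likewise lower in replicates 1 and 2 (-1.12 and -0.62 for Slc16a1, -1.52 and -0.77 for Slc2a1). Slc16a1 was higher in replicate 3 (0.37; edgeR adjusted p = 0.00511). Slc2a2, the main glucose transporter of rodent beta cells, was not called in replicate 1 (-0.01; edgeR adjusted p = 0.934) and was lower in replicates 2 and 3 (-0.42 and -0.43).

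Of 9 pentose phosphate genes, 1 was lower and 6 higher in replicate 1, with a median log2 fold change of 0.31, where 25.2% of all genes were lower and 24.2% higher. In replicate 2, 0 were lower and 1 higher, against 11.3% and 8.92% of all genes. Taldo1, transaldolase, was at 131, 96.5 and 84.4 CPM in Paupar KD replicates 1 to 3 and at 81.1 ± 5.53 CPM in Control KD (SD, n = 3; edgeR adjusted p = 3.72e-06 in replicate 1). Rpia, ribose-5-phosphate isomerase, and Prps1, which makes phosphoribosyl pyrophosphate, were also higher in replicate 1 (log2 fold change 0.84 and 0.34), and Prps1 was lower in replicate 3 (-0.27; edgeR adjusted p = 0.0128). Of 9 tested genes of the shuttles that carry NADH electrons from the cytosol into mitochondria, 0 were lower and 7 higher in replicate 1, and 0 lower and 3 higher in replicate 2, against the same shares of all genes. Gpd2, the mitochondrial glycerol-3-phosphate dehydrogenase, was at 231, 205 and 136 CPM in Paupar KD and at 150.2 ± 3.06 CPM in Control KD (edgeR adjusted p = 1.64e-06, 1.9e-04 and 0.157 in replicates 1 to 3). Mdh2, the mitochondrial malate dehydrogenase, was higher in each library (log2 fold change 0.69, 0.36 and 0.25), and Mdh1, the cytosolic one, in replicate 1 alone (0.36). Of 12 tested genes of pyruvate entry into mitochondria, 5 were lower and 0 higher in replicate 1, against 25.2% and 24.2% of all genes, among them Pdk1, the kinase that inactivates pyruvate dehydrogenase (log2 fold change -1.41, -0.46 and 0.09 in replicates 1 to 3), its relative Pdk3 (-0.49, -0.27 and 0.08) and Brp44l, the older symbol of the mitochondrial pyruvate carrier gene Mpc1 (-0.70, -0.28 and -0.06). Of 4 tested genes of glucose phosphatase and gluconeogenesis, 1 was lower in replicate 1 (Pck2, -0.23) and 1 higher (G6pc3, 0.28), at the share of all genes, and Pcx, pyruvate carboxylase, was lower in replicate 2 (-0.26). The group comparison called 0 genes of any of these lists; at an unadjusted p under 0.05 edgeR gave 2 of the fructose bisphosphate genes, 1 pentose phosphate gene, 3 shuttle genes, 1 gene of pyruvate entry and 0 of the others, against 17.7% of all genes.

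The list of HIF pathway genes outside glycolysis was written knowing that such genes were low in some of these libraries. Of 18 tested genes, 15 were lower and 1 higher in replicate 1, 12 lower and 0 higher in replicate 2, and 0 in replicate 3, with median log2 fold changes of -1.26, -0.51 and 0.08. Of all genes 25.2%, 11.3% and 9.13% were lower in replicates 1, 2 and 3, and 24.2%, 8.92% and 7.65% higher. In the same libraries the 10 enzyme genes had medians of -1.38, -0.54 and 0.03. Bnip3, a mitophagy receptor, was at 70.8, 308 and 509 CPM in Paupar KD replicates 1 to 3 and at 494, 505 and 426 CPM in Control KD, and Adm, which encodes adrenomedullin, at 3.24, 10.1 and 26.0 CPM in Paupar KD and at 25.8, 23.2 and 19.2 CPM in Control KD. Egln3, a prolyl hydroxylase that acts on HIF, was lower in replicates 1 and 2 (log2 fold change -1.70 and -0.92; edgeR adjusted p = 1.16e-04 and 0.00716). Hif1a, which encodes the oxygen-regulated subunit of HIF-1, was at 112, 151 and 171 CPM in Paupar KD and at 151.7 ± 2.73 CPM in Control KD (SD, n = 3; log2 fold change -0.44, -0.00 and 0.17). Protein levels of HIF-1 were not measured. No gene of this list was called between the groups (3 of 18 at an unadjusted p under 0.05 by edgeR, near the 17.7% of all genes).

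**Figure D5:**
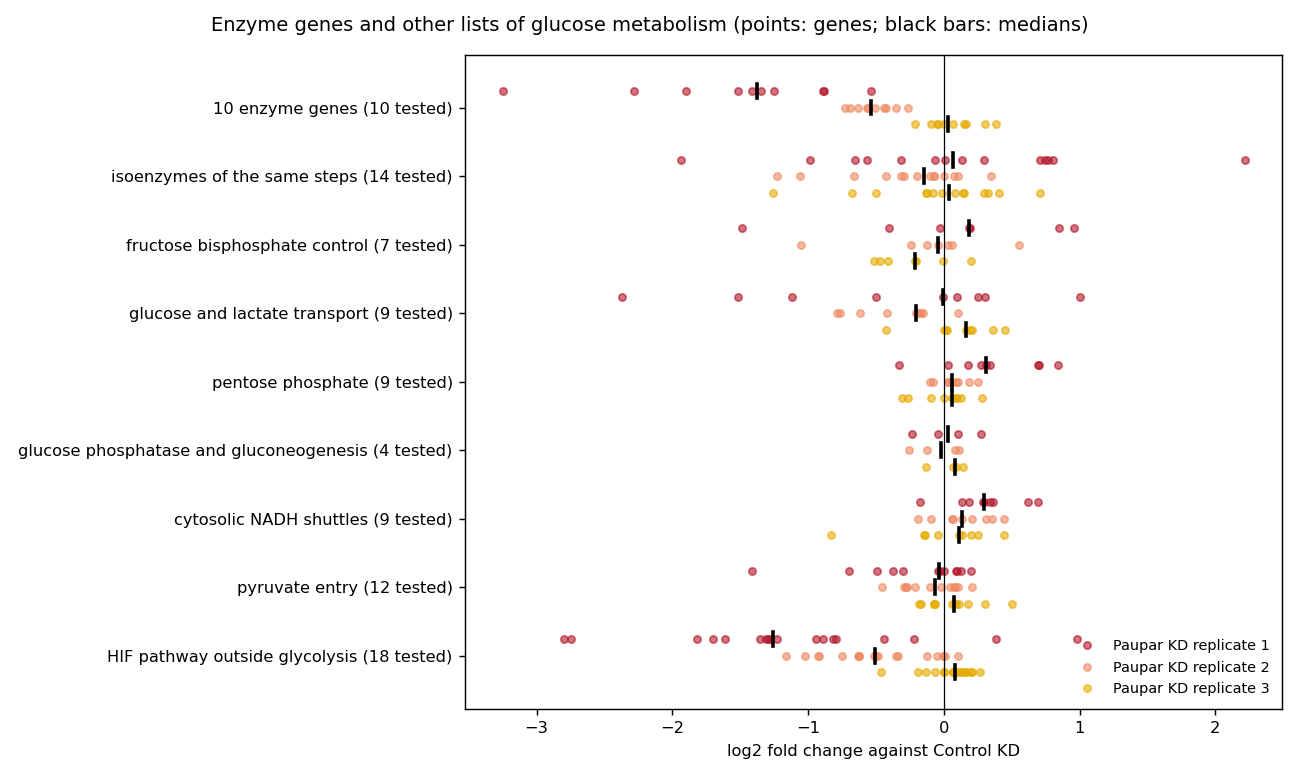
Log2 fold change (x axis) against the 3 controls of the genes tested in each list, with a row of points for each Paupar KD library and a black bar at the median. The 10 enzyme genes and the HIF pathway list have medians of -1.38 and -1.26 in replicate 1, while the other lists there have medians between -0.04 and 0.31. The HIF pathway list was written knowing that such genes were low in some of these libraries, so its low median is not an independent result.

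Across all 6 libraries, the genes outside the 10 with the most similar profile were Pdk1, 1110020G09Rik, Pvr, Vldlr and Pgm2. Likeness was measured as the root mean square distance between a gene's log2 differences from its control mean and the median differences of the 10 genes, over 8263 genes with a mean of at least 20 CPM. The distances were 0.0423 for Pdk1, 0.0518 for 1110020G09Rik, 0.0520 for Pvr, 0.0561 for Vldlr and 0.0615 for Pgm2, against a median of 0.608 over the genes compared. Pdk1 was at 139, 271 and 396 CPM in Paupar KD replicates 1 to 3 and at 379, 380.2 and 356 CPM in Control KD. Vldlr, the very low density lipoprotein receptor gene, was at 144, 231 and 365 CPM in Paupar KD and at 345, 356 and 343 CPM in Control KD. Pgm2, a phosphoglucomutase gene, was at 144, 246 and 419 CPM in Paupar KD and at 387, 402 and 361 CPM in Control KD. Pvr, the poliovirus receptor gene, was at 17.5 to 46.9 CPM in Paupar KD and at 42.4 to 45.3 CPM in Control KD. 1110020G09Rik was at 13.1 to 34.7 CPM in Paupar KD and at 32.0 to 35.3 CPM in Control KD.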

How the data were processed

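RNA was purified with a Qiagen kit and made into libraries with Illumina TruSeq reagents, per the labels. The authors deposited a raw read count for each gene symbol and library. The build mm9 and the tools HISAT2, HTSeq, DESeq2 and CASAVA 1.8.2 are named, per the submitters' processing notes. For their roles, the strand setting, the annotation and reads with several matches: not given in the sources used here. Without strand, reads shared with overlapping genes cannot be told apart (2210417K05Rik with Hk1, Gm17327 with Gpi1, Pitrm1 with Pfkp, Spsb2 with Tpi1).

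Counts were tested with edgeR 4.0.16 in R 4.3.3: filterByExpr (minimum count 10), TMM scaling, quasi-likelihood tests with robust estimation, and Benjamini-Hochberg adjustment over 13039 genes at 0.05. The group fit used all 6 libraries. A second fit gave each Paupar KD library its own coefficient, so that its spread comes from the 3 controls. CPM are deposited counts scaled to the TMM library size. RPKM divide CPM by the length of all annotated exons (GENCODE M1, mm9), so ranks and shares between genes depend on that length. SE is the log2 fold change over the square root of F. Both fits were run on simulated data in which all libraries had the same spread. The Paupar KD libraries here differed more than the controls, so that run cannot show how the fits perform on them.

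Some genes of the lists are not reported here. The genes and lists were chosen with earlier results of these data known. Named list genes are the up to 3 per list with the widest range over the Paupar KD libraries (mean CPM of at least 5), plus Gapdh, Pgam1 and Ldhb, and the 5 nearest profiles. Gm5506, Pfkm, Aldoc, Bpgm, Eno2, Eno3, Slc2a2 and Hif1a were named after their values were seen. Libraries of a group differed by more than counting error: the mean chi-square of a gene, near 1 for 1 library split at random, was 24.8 to 82.2 between pairs of Paupar KD libraries and 3.47 to 8.47 between pairs of controls. Alternatives were other scaling, other filters, DESeq2 1.42.0, limma-voom (limma 3.58.1), no robust estimation, a replicate block and leaving out each library.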

Additional observations from a re-analysis of the deposited data

How the results depend on the processing

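The group comparison called 0 of the 10 enzyme genes under 15 of 16 alternatives and 7 without Paupar KD replicate 3 (0 to 7 over the fits that leave out a library); the fit without that library has 2 Paupar KD libraries. All log2 fold changes of the 10 genes kept their negative sign in every alternative in which they were tested, and their median ran from -0.87 to -0.19. Called lower without Paupar KD replicate 3 were Hk1, Gpi1, Pfkl, Pfkp, Aldoa, Pgk1 and Pkm2 (edgeR adjusted p = 0.024 to 0.0472). With a replicate block the median was -0.62 and 0 genes were called. The replicate numbers share no stated source, and libraries of 1 number deviated from their group with correlations of 0.111, 0.0349 and 0.0298, so the pairing was not used. Against the controls, replicate 1 gave 9 to 10 lower genes and replicate 2 gave 8 to 10 under 12 alternatives each. Of all genes tested (12239 to 17398), those alternatives called 2407 to 3611 lower and 2093 to 3705 higher in replicate 1. In replicate 2 they called 823 to 1851 lower and 431 to 1625 higher. In replicate 3, DESeq2 called 1 of the 10 (higher) in place of 2, and leaving out a control gave 1 to 2; the cause was not tested. Leaving out a control moved the median of replicate 1 between -1.45 and -1.34 and that of replicate 3 between -0.031 and 0.056. A mean CPM of at least 1 removes Eno1, which leaves 9 genes. The upper end of the range for replicate 2 came only from summing Eno1 with Gm5506, a sum made up mostly of Gm5506. Over all genes, the group comparison called 6 with edgeR, 508 with DESeq2, 60 with no filter on low counts, 3 with upper-quartile factors, 1 with the replicate block and 2 among genes averaging 1 CPM or more; leaving out a library gave 0 to 1356. Depth limits Eno1 and Ldhb, with at most 39 counts a library.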
